A study of Mus musculus with 12 samples.

Results

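The genes described here are the nuclear-encoded subunits of the mitochondrial respiratory chain and ATP synthase. They were chosen by symbol in the platform annotation: every symbol that starts with Nduf, Uqcr, Cox4, Cox5, Cox6, Cox7, Cox8 or Atp5, with Sdha, Sdhb, Sdhc, Sdhd, Cyc1 and Cycs, and without the Ndufaf assembly factors, Cox7a1 and Cox8b. Each gene was represented by its brightest probe set that named only that gene. This gave 82 members of 18194 genes: 36 in complex I, 4 in complex II, 10 in complex III with cytochrome c, 15 in complex IV and 17 in complex V. Another 8 symbols that fit the rule, among them Ndufa11 and Ndufs6, appeared only on probe sets naming several genes and were left out.

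The arrays came from 2 mouse experiments with 2 arrays, lettered a and b, in each of 6 groups. In the first, wild-type C57BL/6 mice and Smad3-/- mice of a mixed C57BL/6 and NIH Black Swiss background ate a regular diet or one rich in fat (55% fat), which gives the groups WT_RD, WT_HFD, KO_RD and KO_HFD. Smad3 carries the signal of TGF-beta receptors to the nucleus. In the second, diet-induced obese mice received intraperitoneal injections 3 times a week for 8 weeks of either the control IgG 13C4 (IgG) or the antibody 1D11 against TGF-beta (ATGF). Genotype and strain background cannot be told apart in this design, and the labels give neither the tissue nor the animals behind arrays a and b. The p-values here reflect array-to-array spread, which may be technical. That spread was pooled over the 6 groups of both experiments and drawn toward a trend over all genes. A group whose arrays differed more therefore has no larger standard error of its own. Adipoq, the fat cell hormone adiponectin, had mean log2 signals from 13.07 ± 0.08 (SD, n = 2) in KO_RD to 13.95 ± 0.07 in WT_RD in the first experiment, and of 13.80 ± 0.00 with IgG and 14.15 ± 0.04 with the antibody in the second.

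The respiratory chain passes electrons from NADH (complex I) and succinate (complex II) through complex III and the small carrier cytochrome c to oxygen at complex IV, and pumps protons across the inner mitochondrial membrane as it does so. ATP synthase, complex V, lets the protons flow back and makes ATP. White fat cells hold comparatively few mitochondria, while brown fat and skeletal muscle are rich in them. Most subunits are encoded in the nucleus and their genes tend to be transcribed in a coordinated way, in which the factors NRF1, ERR, GABPA and YY1 are known to take part.

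RefSeq promoter windows (GRCm38.p6, from 250 bases before to 50 after a gene's start) were found for 66 of the 82 members. The NRF1 motif (GCGCA, any base, then GCGC), read like the others on both strands, was present in 15 of these 66 (22.7%) and in 1402 of 27025 genes in the table (5.19%). The YY1 motif AAGATGGC was in 9 members (13.6%, against 3.19% of genes), the GABPA motif CCGGAAGT in 5 (7.58%, against 4.31%) and the ERR motif TNAAGGTCA in 3 (4.55%, against 1.43%). The stretches below are each 80 bases read 5′ to 3′ on the gene's strand, and end before a start of the gene. They are shown because these members differ in how they moved. Sdha and Sdhd rose in KO_HFD and ATGF, and Ndufs5 and Atp5g3 fell in KO_RD. Ndufs5 was also higher in KO_HFD than in WT_HFD (0.87), as Sdha and Sdhd were. The stretches lie on the minus strand at chr13:74350294-74350373 (Sdha), chr9:50603884-50603963 (Sdhd), chr4:123718240-123718319 (Ndufs5) and chr2:73911335-73911414 (Atp5g3). That of Atp5g3 lies inside the gene's span (73908447 to 73912464), before an internal start. Capitals mark the NRF1 motif in the first 3 and the ERR motif, on the opposite strand, in Atp5g3. Outside the stretches shown, the promoter windows of Sdhd also held the ERR motif and those of Atp5g3 the NRF1 motif.
Sdha: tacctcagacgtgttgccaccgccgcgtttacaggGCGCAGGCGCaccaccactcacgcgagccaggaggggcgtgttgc
Sdhd: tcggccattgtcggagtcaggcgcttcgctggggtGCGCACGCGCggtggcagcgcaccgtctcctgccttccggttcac
Ndufs5: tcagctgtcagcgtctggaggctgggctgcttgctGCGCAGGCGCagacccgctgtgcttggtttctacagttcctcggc
Atp5g3: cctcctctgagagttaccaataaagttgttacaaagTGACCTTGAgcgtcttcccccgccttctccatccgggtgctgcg
A match is a description of the letters only. Of the 15 members with the NRF1 motif, 13 were higher in KO_HFD than in WT_HFD, 10 were higher with the antibody, and 6 were lower in WT_HFD than in WT_RD. In KO_RD 1 was higher and 3 were lower than in WT_RD. Of all 82 members, 66 (80.5%) were higher in KO_HFD, 59 (72.0%) were higher with the antibody and 31 (37.8%) were lower in WT_HFD. In KO_RD 15 of the 82 were higher and 5 lower. The difference between members with the motif and all members was not tested.

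Values are log2 signals from RMA normalization, in which a difference of 1 is a doubling, and "called" means an adjusted p under 0.05 in limma across all 18194 genes. Array medians lay between 6.32 and 6.39 in the diet and genotype experiment and between 6.03 and 6.04 in the antibody experiment, whose SD over probe sets was larger (2.15 to 2.17, against 1.64 to 1.74), so levels are set side by side only within an experiment. Smad3 itself was 8.90 ± 0.05 in WT_RD, 9.13 ± 0.05 in KO_RD, 8.92 ± 0.05 in WT_HFD and 9.09 ± 0.08 in KO_HFD, and 0 of its 3 probe sets were called between genotypes on either diet. The labels do not say which exons the knockout removes, so these probe sets leave the label unchecked, and genotype is given below as labelled. The members also shifted together between the arrays of a group. Array b was above array a for 75 of 82 members in WT_HFD (median shift 0.25) and for 74 in KO_HFD (0.12), and below it for 76 in KO_RD (-0.22), while the median shift of all genes in these groups was within 0.02 of 0. The Gapdh 3′ minus 5′ probe set difference, a sign of RNA quality, was 0.12 and 0.14 in WT_RD, 0.28 to 0.50 in WT_HFD, KO_RD and KO_HFD, and 0.02 to 0.14 in the antibody experiment. The same difference for actin was 0.77 and 0.80 in WT_RD and 0.90 to 1.12 in the other groups of that experiment, and was higher with the antibody (0.87 and 0.75) than with IgG (0.61 and 0.67). Its part in the members' values was not tested.

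**Figure D1:**
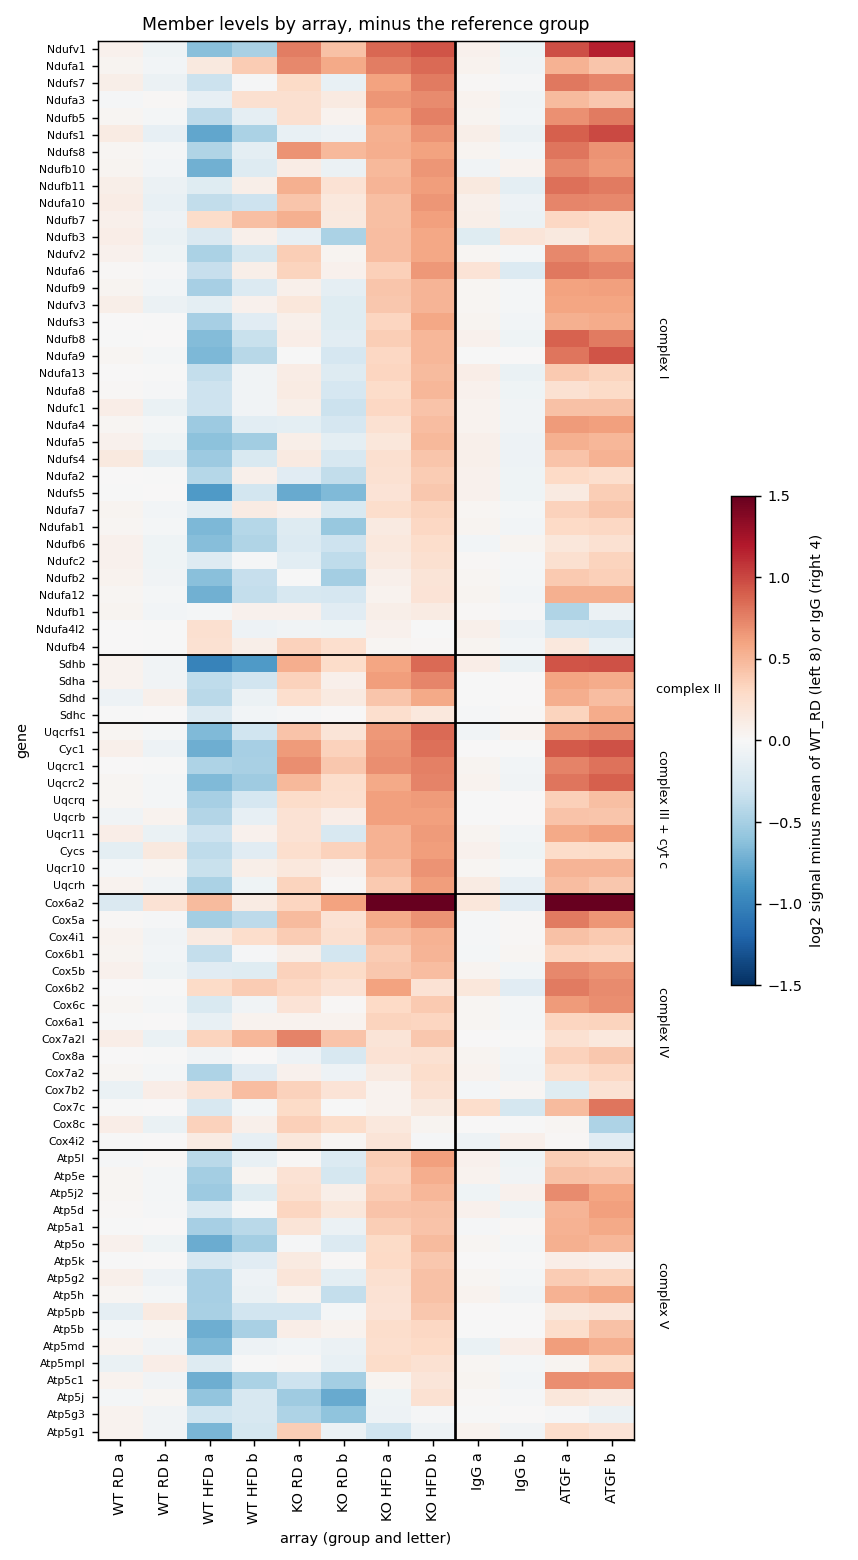
Log2 signal of each of the 82 members (rows, by complex) on each of the 12 arrays (columns), minus the mean of WT_RD for the left 8 arrays and of IgG for the right 4. Most rows are blue in WT_HFD and red in KO_HFD and ATGF, with colours clipped at 1.5 in either direction.

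On high fat diet the members were higher in arrays labelled Smad3-/- than in wild-type arrays in every complex. Of the 82, 66 were called higher (80.5%) and 0 lower, where 4.74% of all genes were called higher and 6.05% lower. The median log2 difference was 0.68 over the members and -0.01 over all genes. All 4 subunits of complex II (median 0.87) and all 10 genes of complex III with cytochrome c (0.95) were called higher, as were 30 of 36 in complex I (0.68) and 15 of 17 in complex V (0.66). Complex IV had 7 of 15 (0.30).

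Sdhb, the iron-sulphur subunit of succinate dehydrogenase, read 10.27 and 10.42 in WT_HFD and 11.87 and 12.12 in KO_HFD. Its groups did not overlap, and the difference of 1.65 ± 0.11 (SE; 3.15-fold, adjusted p = 9.51e-12) was the largest in complex II. The other subunits of this complex, which also serves the citric acid cycle, differed by 1.01 for the flavoprotein Sdha, 0.74 for the membrane anchor Sdhd and 0.33 for the anchor Sdhc. Sdhc was the least certain of the 4 (SE 0.10, adjusted p = 0.0353), and its call was lost under 7 alternatives (here and below not counting a demand for a change of over 1.5-fold), among them leaving out either KO_HFD array or WT_HFD array a.

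In complex I, Ndufv1, the subunit that binds NADH, read 10.46 and 10.60 in WT_HFD and 11.94 and 12.04 in KO_HFD, a difference of 1.46 ± 0.11 (2.74-fold, adjusted p = 1.22e-10). Ndufs1, the largest iron-sulphur subunit, went from 8.17 and 8.47 to 9.48 and 9.62, a difference of 1.23 ± 0.12. Both KO_HFD arrays lay above both WT_HFD arrays for each of these genes. The 6 measured core subunits, which carry the electrons and have counterparts in bacteria (Ndufs1, Ndufs3, Ndufs7, Ndufs8, Ndufv1 and Ndufv2), were all called, with a median of 0.88. The other 30 complex I genes, mostly accessory subunits, had 24 called and a median of 0.62. Ndufa4, which is counted here by its symbol but has since been found in complex IV, rose by 0.69 ± 0.11. Ndufa2 had the smallest called difference in the complex, 0.49 ± 0.12.

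In complex III, Cyc1, which carries the haem of cytochrome c1, read 10.80 and 11.03 in WT_HFD and 12.20 and 12.36 in KO_HFD, a difference of 1.36 ± 0.11 (2.57-fold, adjusted p = 3.55e-10). The core proteins Uqcrc1 and Uqcrc2 differed by 1.20 and 1.25, and the Rieske iron-sulphur protein Uqcrfs1 by 1.24. Cycs, the carrier cytochrome c itself, rose less, from 11.38 and 11.59 to 12.29 and 12.38 (0.85 ± 0.11). The smallest difference in this complex was that of Uqcr10, at 0.69.

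In ATP synthase, the catalytic F1 part had 5 of 5 genes called with a median of 0.71, and the stalk and membrane part 10 of 12 with a median of 0.62. Atp5b, the catalytic beta subunit, went from 12.19 and 12.43 to 13.19 and 13.23, a difference of 0.89 ± 0.11 (adjusted p = 3.25e-07). Atp5o, the stalk protein that confers oligomycin sensitivity, had the largest difference, 1.01 ± 0.11. The genes Atp5g1, Atp5g2 and Atp5g3 encode the same mature c subunit of the membrane ring. Of these, Atp5g2 was called higher (0.63 ± 0.13), while Atp5g1 (0.29, adjusted p = 0.223) and Atp5g3 (0.23, adjusted p = 0.176) were not.

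Markers of other cell types and tissues differed between these groups as well. All 24 skeletal muscle markers were called higher in KO_HFD than in WT_HFD, with a median of 4.12, and the mean level of the list was 6.13 to 6.19 in WT_HFD and 10.13 to 10.25 in KO_HFD. Ckm, the creatine kinase of muscle, went from 6.32 ± 0.33 to 11.94 ± 0.06. Of 14 brown fat markers, 10 were called higher, with list levels of 6.39 to 6.40 and 8.43 to 8.47, and Ucp1, the uncoupling protein of brown fat, went from 6.35 ± 0.03 to 11.77 ± 0.14. Cox7a1 and Cox8b, subunit isoforms of muscle and brown fat that the rule leaves out, were 17.8-fold and 13.6-fold higher. Ucp1, Cox7a1 and Cox8b are themselves among the 14 brown fat markers, so they are not results apart from the list. With Cox7a1 and Cox8b in it, the list is also not separate from muscle. On regular diet, where the members' median was 0.05, Cox7a1, Cox8b and Ucp1 were 17.7-fold, 15.2-fold and 62.2-fold higher in KO_RD. On high fat diet macrophage markers were lower in KO_HFD for 10 of 16 (median -0.50), and epididymis and testis markers for 8 of 13 (-0.92). The part of these cell types in the members' difference was not tested, and in such bulk samples a change in the number of cells of a type and in RNA per cell cannot be told apart.

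**Figure D2:**
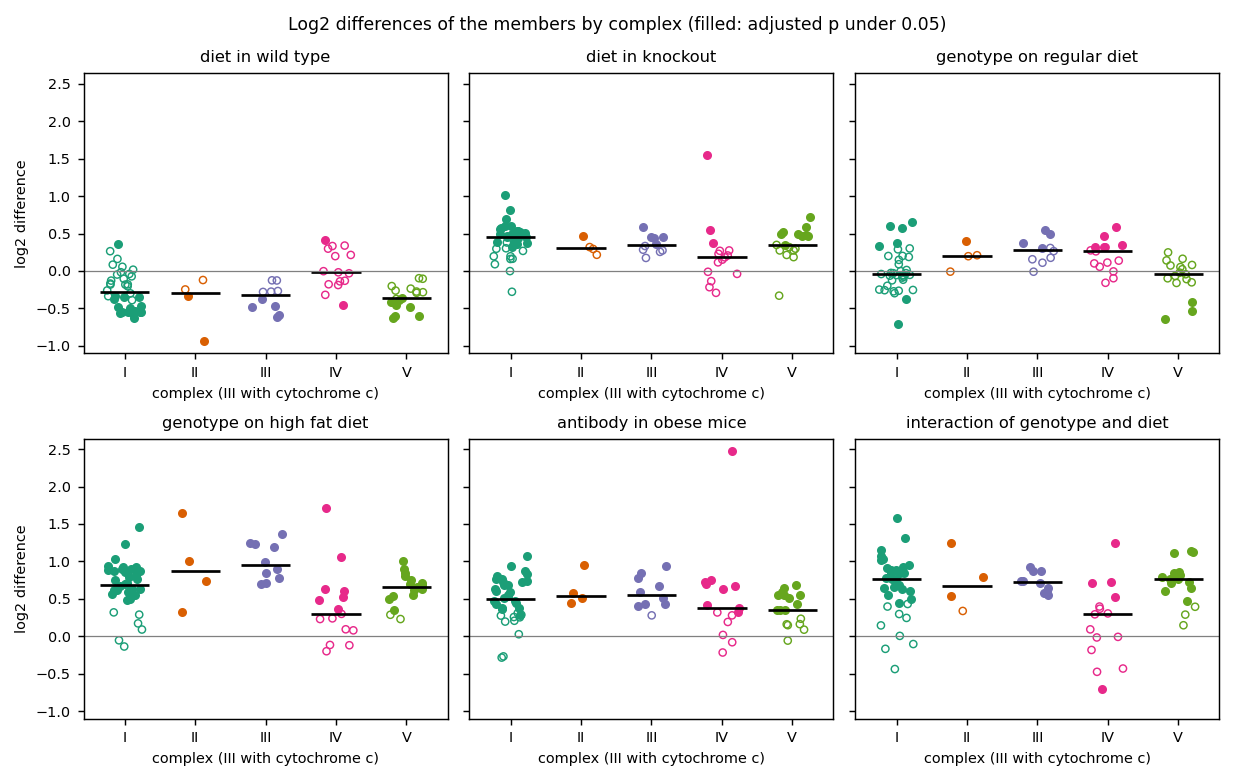
Log2 difference of each member by complex in the 6 comparisons; filled points have an adjusted p under 0.05, open points do not, and the black bar is the median of the complex. Complexes I, II, III and V lie mostly below 0 for diet in wild type and above 0 for the antibody and for genotype on high fat diet, and complex IV has the lowest median of the 5 for genotype on high fat diet.

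The antibody against TGF-beta was given in a separate experiment that shares no array with the genotype comparisons. There 59 of 82 members (72.0%) were called higher than with IgG and 0 lower, where 11.7% of all genes were called higher and 12.6% lower. The median difference was 0.47 over the members and -0.00 over all genes. The counts were 26 of 36 in complex I, 4 of 4 in complex II, 9 of 10 in complex III with cytochrome c, 9 of 15 in complex IV and 11 of 17 in complex V.

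Ndufv1 again had the largest difference in complex I, from 10.97 and 10.83 with IgG to 11.87 and 12.07 with the antibody (1.07 ± 0.11, 2.10-fold, adjusted p = 2.51e-08). Sdhb went from 11.40 and 11.20 to 12.24 and 12.26 (0.95 ± 0.11), and Cyc1 from 11.23 and 11.21 to 12.14 and 12.18 (0.94 ± 0.11). In each, both antibody arrays lay above both IgG arrays. Atp5c1, the gamma subunit that turns within F1, had the largest difference of ATP synthase (0.69 ± 0.11), and Atp5b rose by 0.36 ± 0.11. The call for Atp5b was lost when either IgG array or ATGF array b was left out. The core complex I subunits were again all called, with a median of 0.75, against 20 of the other 30 with a median of 0.44. Cycs was the one gene of its complex not called (0.28 ± 0.11, adjusted p = 0.0628), and Atp5g3 read 13.08 and 13.09 with IgG and 13.06 and 12.99 with the antibody (-0.06, adjusted p = 0.743).

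The marker lists moved in this experiment as well. All 24 skeletal muscle markers were called higher with the antibody (list level 5.98 to 5.99 with IgG, 10.66 to 10.71 with the antibody), as were 13 of 14 brown fat markers (6.50 to 6.52, and 9.02 to 9.11). Of 16 macrophage markers, 14 were called lower. The part of these changes in the members' difference was not tested.

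Of the 66 members higher in KO_HFD and the 59 higher with the antibody, 53 were the same genes, which is 80.3% of the first and 89.8% of the second. Across the 82 genes, which are not independent replicates, the log2 differences of both comparisons had a Pearson r of 0.73 and a Spearman rho of 0.65, where r over all genes was 0.52. Members called for genotype on high fat diet but not for the antibody included Ndufs5 (0.87 and 0.25) and Atp5j (0.50 and 0.15). Their antibody differences had adjusted p = 0.191 and 0.412, and the genotype call of Atp5j was lost under 2 alternatives. Whether the 2 comparisons differ in these genes was not tested.

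**Figure D3:**
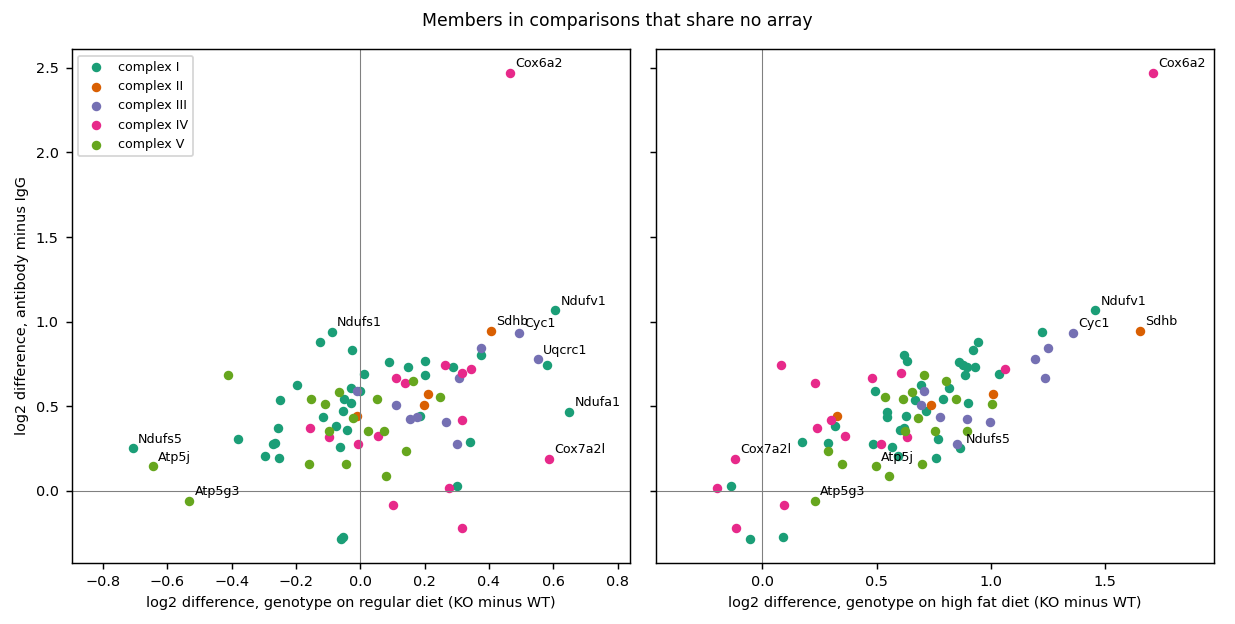
Log2 difference of each member with the antibody (vertical) against that of genotype on regular diet (left) and on high fat diet (right), coloured by complex. On the right the points rise together (r = 0.73), with Cox6a2 and Ndufv1 at the top, and on the left they scatter (r = 0.36), with Ndufs5, Atp5j and Atp5g3 at the left edge.

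Diet moved the members in opposite directions in the 2 genotypes. In wild type, 31 of 82 (37.8%) were called lower on high fat diet and 2 higher, where 6.11% of all genes were called lower and 4.69% higher, and the median was -0.27 (0.02 over all genes), or -0.15 with quantile normalization applied again. Of 967 other genes with a mean log2 signal of at least 10, a level that 65 of the 82 members reach and that was chosen after seeing the data, 225 (23.3%) were called lower, with a median of -0.07. Sdhb fell furthest, from 11.32 and 11.22 to 10.27 and 10.42 (-0.93 ± 0.11, 1.90-fold lower, adjusted p = 5.08e-07). Cyc1 fell by 0.61 and Ndufs1 by 0.62. In ATP synthase Atp5o fell by 0.63 and Atp5b by 0.61, and Atp5g1 fell by 0.48 from 9.25 and 9.14 to 8.50 and 8.93. The call of Atp5g1 was lost under 5 alternatives. Complex IV contributed 1 called gene in each direction, with Cox5a lower by 0.45 and Cox7a2l higher by 0.42. The call of Cox5a was lost under 1 alternative and that of Cox7a2l under 3. The other called members were 15 lower in complex I, 2 lower in complex II, 5 lower in complex III and 8 lower in complex V, with Ndufb7 of complex I higher (0.36 ± 0.12, adjusted p = 0.0436).

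The size of this fall rested on the arrays used. Over the members the median distance from the WT_RD mean was -0.41 on WT_HFD array a and -0.12 on array b, so the arrays of WT_HFD differed from each other by about as much as the groups did. Without WT_HFD array a 16 members were called lower, and without WT_RD array a 18. The skeletal muscle markers were also lower in WT_HFD for 6 of 24 (Ckm by 2.74), and 8 of 13 epididymis and testis markers were higher. Their part in the fall was not tested.

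In the arrays labelled Smad3-/- 43 of 82 members (52.4%) were called higher on high fat diet and 0 lower, where 11.5% of all genes were called higher and 5.82% lower, with a median of 0.36 (-0.00 over all genes), or 0.21 with quantile normalization applied again. Many bright genes moved the same way: of the 967 other bright genes 511 (52.8%) were called higher, with a median of 0.33. The members' share was therefore near that of genes of like brightness in this comparison. By contrast 163 of these 967 genes (16.9%) were called higher for genotype on high fat diet and 169 (17.5%) with the antibody. Complex I had 25 of its 36 genes called, led by Ndufs5, which went from 8.15 and 8.25 to 9.11 and 9.32 (1.01 ± 0.14, 2.02-fold, adjusted p = 1.45e-06). Complex II had Sdha called (0.47 ± 0.10), complex III 5 of 10, led by Uqcr11 at 0.59, and complex V 9 of 17, led by Atp5j at 0.73 ± 0.12. The call of Sdha was lost with each gene's probe sets averaged. Sdhb (0.32, adjusted p = 0.0508), Ndufv1 (0.30, adjusted p = 0.0734), Cyc1 (0.26, adjusted p = 0.131) and Uqcrc1 (0.17, adjusted p = 0.312), which were far higher in KO_HFD than in WT_HFD, were not called here.

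Without KO_HFD array b 20 members were called higher and without KO_RD array b 27. Uqcrq, a small subunit of complex III, was called higher on its brightest probe set (0.36) but its 3 other probe sets gave -0.22, -0.34 and -0.04. All 24 skeletal muscle markers were higher in KO_HFD than in KO_RD, 11 of 12 white fat markers were higher, and 11 of 13 epididymis and testis markers were lower (list level 10.74 to 10.77 in KO_RD, and 6.95 to 7.21 in KO_HFD). Lcn5, a lipocalin of the epididymis, fell from 14.02 ± 0.02 to 5.38 ± 0.24. The part of these markers in the members' rise was not tested.

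Of the 31 members lower on high fat diet in wild type, 21 (67.7%) were higher on it in arrays labelled Smad3-/-. The share was 43.1% over all genes (479 of 1112) and 65.8% over the other bright genes (148 of 225), so that of the members was near that of genes of like brightness. The test of the difference between genotypes, the interaction, called 58 of 82 members higher (70.7%) and 1 lower, where 12.0% of all genes were called higher and 6.77% lower. The median was 0.70, and 0.46 over the 967 other bright genes, of which 500 (51.7%) were called higher. With quantile normalization applied again the members' median was 0.37. The lists that moved with it were skeletal muscle (24 of 24 markers higher, median 3.62), white fat (11 of 12 higher, 1.57) and epididymis and testis (13 of 13 lower, -6.07), and their part in the members' values was not tested. All 10 genes of complex III were called, 27 of 36 in complex I, 3 of 4 in complex II, 14 of 17 in complex V and 4 of 15 in complex IV. Ndufs5 had the largest value (1.57 ± 0.19, adjusted p = 2.78e-07), followed in complex I by Ndufs1 at 1.32. Sdhb had 1.25, Atp5j 1.14, Uqcrfs1 0.93 and Atp5b 0.82. Cox7a2l was the one member called in the opposite direction.

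**Figure D4:**
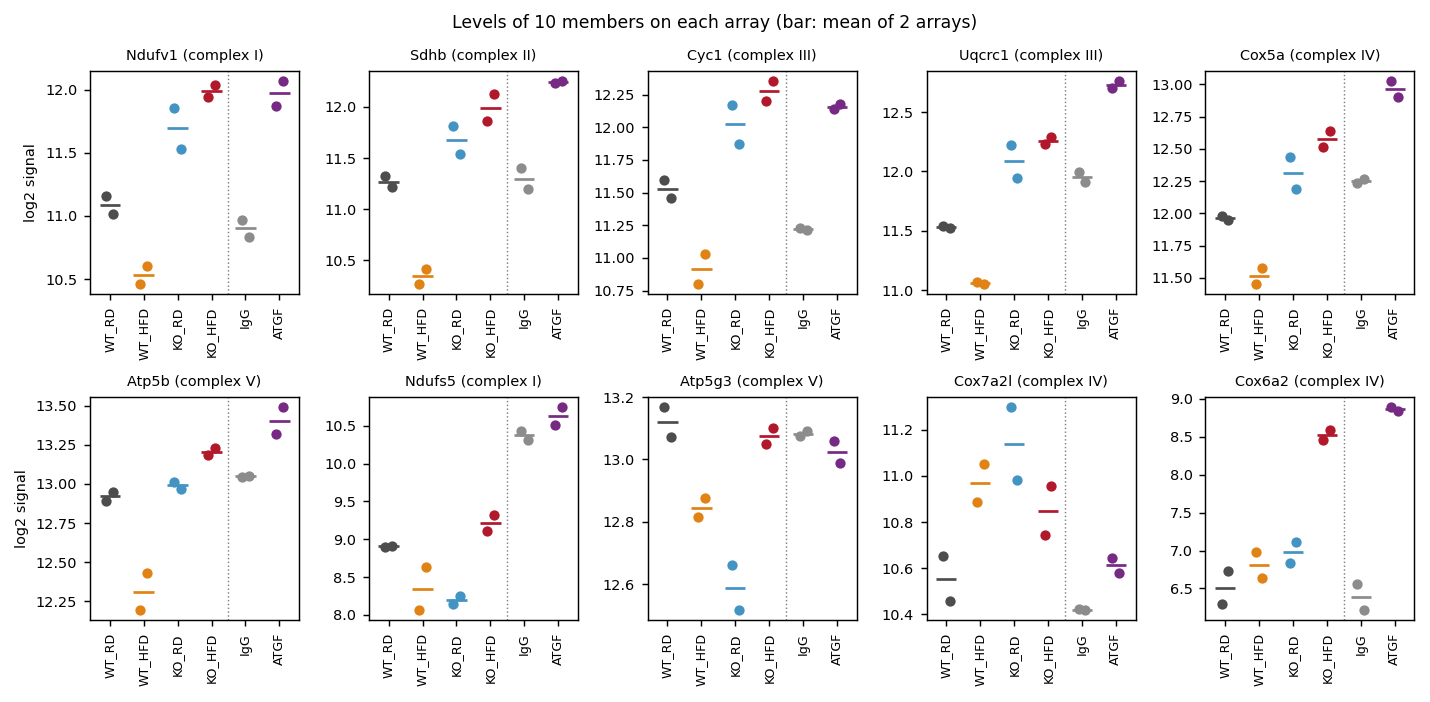
Log2 signal of 10 members on each array; points are arrays, bars the mean of the 2 arrays of a group, and the dotted line divides the diet and genotype experiment from the antibody experiment. Ndufv1, Sdhb, Cyc1, Uqcrc1 and Cox5a are lowest in WT_HFD and high in both KO groups, Ndufs5 and Atp5g3 are low in KO_RD, Cox7a2l is lowest in WT_RD among the first 4 groups, and Cox6a2 is high in KO_HFD and ATGF.

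On regular diet fewer members were called between genotypes than on high fat diet. Of 82, 15 (18.3%) were called higher in KO_RD and 5 (6.10%) lower, where 8.4% of all genes were called higher and 15.6% lower, and the median was 0.05 (0.04 over all genes). The 967 other bright genes had a median of -0.46, with 91 called higher (9.41%) and 585 lower (60.5%). The complexes did not move alike. Complex III had 4 of 10 higher (median 0.28), complex IV 5 of 15 higher (0.26), complex I 5 higher and 2 lower of 36 (-0.05), complex II Sdhb alone, and complex V 0 higher and 3 lower of 17 (-0.04).

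Ndufv1 read 11.16 and 11.02 in WT_RD and 11.85 and 11.53 in KO_RD (0.61 ± 0.11, 1.52-fold, adjusted p = 0.000126). Uqcrc1 went from 11.54 and 11.53 to 12.23 and 11.94 (0.55 ± 0.10), and Cyc1 from 11.60 and 11.46 to 12.17 and 11.87 (0.49 ± 0.11). Ndufa1, a small membrane subunit of complex I encoded on the X chromosome, had the largest rise, from 11.90 and 11.82 to 12.58 and 12.43 (0.65 ± 0.11). These KO_RD arrays lay above the WT_RD arrays in each case, and array a read higher than array b.

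The 5 members lower in KO_RD were Ndufs5, Ndufab1, Atp5c1, Atp5g3 and Atp5j. Ndufs5, an accessory subunit facing the intermembrane space, went from 8.90 and 8.91 to 8.15 and 8.25 (-0.71 ± 0.14, 1.63-fold lower, adjusted p = 0.000168). Atp5j, coupling factor 6 of the stalk, fell by 0.65 from 11.11 and 11.16 to 10.60 and 10.38. Atp5g3 fell by 0.53 from 13.17 and 13.07 to 12.66 and 12.52, while Atp5g2 read 10.58 and 10.42 in WT_RD and 10.69 and 10.36 in KO_RD. Atp5c1 (-0.41) and Ndufab1, the mitochondrial acyl carrier protein (-0.38), lost their calls under 4 and 5 of the alternatives respectively.

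The calls of this comparison depended on the scaling of the arrays. With quantile normalization applied again, 44 members were called higher and 3 lower, with a median of 0.24. The medians of complex I and complex V then turned from -0.05 and -0.04 to 0.18 and 0.17, and the split of all genes moved from 1528 higher and 2833 lower to 2438 and 2572. With the arrays centred on their medians, 8 members were higher and 7 lower and the median was -0.01. Of the epididymis and testis markers 12 of 13 were higher in KO_RD (list level 6.06 to 6.09 in WT_RD), of the brown fat markers 9 of 14, and of the skeletal muscle markers 13 of 24 were higher and 5 lower. White fat markers were lower for 11 of 12 and macrophage markers for 11 of 16. Their part in the members' values was not tested.

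A set of 11 members (13.4%) was called higher in all 3 of genotype on regular diet, genotype on high fat diet and antibody, which share no array. Over all genes the count was 127 of 18194 (0.698%), and over the other bright genes 19 of 967 (1.96%). The members were Ndufa1, Ndufb11, Ndufs8 and Ndufv1 of complex I, Sdhb of complex II, Cyc1, Uqcrc1 and Uqcrc2 of complex III, and Cox5a, Cox5b and Cox6a2 of complex IV, with none from complex V. Ndufs8, an iron-sulphur core subunit, differed by 0.58, 0.88 and 0.74 in the 3 comparisons, Uqcrc2 by 0.37, 1.25 and 0.85, and Ndufb11 by 0.38, 0.62 and 0.80. Ndufa1 differed by 0.65, 0.55 and 0.47. On regular diet the calls of Sdhb and Uqcrc2 were lost without WT_RD array b or KO_RD array a, and those of Cox5a, Cox5b, Cox6a2 and Ndufb11 under 4 to 6 alternatives each. Over the 82 members the differences on regular diet had r = 0.18 with those on high fat diet and r = 0.36 with those of the antibody.

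Complex IV, cytochrome c oxidase, holds several isoforms known from other tissues. On high fat diet it had the lowest median difference between genotypes of the 5 complexes (0.30). Without the 5 isoforms listed below, the median of its other 10 genes was 0.42. With the antibody complex V had the lowest median (0.36), against 0.37 in complex IV. Cox5a and Cox5b, which are used in most tissues, were called in all 3 comparisons: Cox5a went from 11.45 and 11.58 in WT_HFD to 12.52 and 12.64 in KO_HFD (1.06 ± 0.11), and from 12.23 and 12.26 with IgG to 13.03 and 12.91 with the antibody (0.72 ± 0.11), and Cox5b differed by 0.61 and 0.70. Cox4i1, the common form of subunit IV, was 12.89 ± 0.09 in WT_HFD and 13.19 ± 0.04 in KO_HFD (0.30 ± 0.10, adjusted p = 0.0566), and rose with the antibody by 0.42. Cox6a1 rose by 0.36 with genotype on high fat diet and by 0.33 with the antibody, calls that were lost under 6 and 4 alternatives. Cox8a rose by 0.38 with diet in arrays labelled Smad3-/- and by 0.37 with the antibody, calls that were lost under 3 alternatives each. For genotype on high fat diet it had 0.24 (adjusted p = 0.155).

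Of the 5 isoforms known from other tissues (Cox4i2, Cox6a2, Cox6b2, Cox7b2 and Cox8c), a group picked here by name with the values known, 1 was called for genotype on high fat diet and 2 for the antibody, against 6 and 7 of the other 10 complex IV genes. Cox6a2, the isoform of heart and skeletal muscle that is also present in brown fat, read 6.98 and 6.64 in WT_HFD and 8.45 and 8.59 in KO_HFD (1.71 ± 0.15, 3.27-fold, adjusted p = 2.46e-09). With the antibody it went from 6.56 and 6.21 to 8.89 and 8.83 (2.47 ± 0.15, 5.55-fold), the largest difference of any member. In KO_RD it read 6.84 and 7.11, close to WT_HFD, and its difference from WT_RD, at 6.29 and 6.73, was 0.46 ± 0.15. A second probe set of Cox6a2 gave 2.50 with the antibody but 0.67 for genotype on high fat diet. The high groups of Cox6a2 were the 2 groups in which the skeletal muscle list stood above 10. The brown fat list was also high in KO_HFD (8.43 and 8.47) and ATGF (9.02 and 9.11), and in KO_RD (8.60 and 8.50). That list includes Cox7a1 and Cox8b, which are isoforms of muscle as well. The part of either tissue in the rise of Cox6a2 was not tested. Cox4i2, the lung form of subunit IV, stayed between 7.20 and 7.31 in the group means of the first experiment and at 6.44 ± 0.11 and 6.36 ± 0.13 in IgG and ATGF. Cox6b2, known from testis, was the other isoform called with the antibody, from 5.69 and 5.35 to 6.30 and 6.23 (0.75 ± 0.15, adjusted p = 0.000492). Cox7b2, also known from testis, read 4.46 to 5.03 in the first experiment and 3.20 to 3.59 in the second.

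Cox7a2l, which takes part in joining complexes III and IV into supercomplexes, followed another order. It read 10.65 and 10.46 in WT_RD, 10.88 and 11.05 in WT_HFD, 11.30 and 10.98 in KO_RD, and 10.74 and 10.96 in KO_HFD. WT_RD was the low group, and WT_HFD overlapped both KO_RD and KO_HFD. It rose by 0.59 ± 0.11 with genotype on regular diet (adjusted p = 0.000201) and by 0.42 ± 0.11 with diet in wild type, and the interaction was -0.71 ± 0.16 (adjusted p = 0.0015). The call for diet in wild type was lost under 3 alternatives, among them leaving out array b of WT_RD or of WT_HFD. On high fat diet the genotype difference was -0.12 (adjusted p = 0.666), and with the antibody it was 0.19 (adjusted p = 0.247). Its 3 probe sets gave like values, from 0.59 to 0.70 for genotype on regular diet and from 0.41 to 0.45 for diet in wild type. Ndufb7, an accessory subunit of complex I and the other member higher with diet in wild type, was also lowest in WT_RD on its brightest probe set, but highest in KO_HFD (means of 11.61, 11.97, 11.95 and 12.15 in WT_RD, WT_HFD, KO_RD and KO_HFD). Its calls were lost under 8 alternatives each, and its second probe set gave 0.07 for genotype on regular diet.

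The rest of the members named by the rule had these levels. In WT_RD, WT_HFD, KO_RD and KO_HFD the group means were 11.80, 11.45, 11.61 and 12.15 for Ndufa4, 11.33, 11.00, 11.54 and 12.01 for Sdha, and 10.89, 10.64, 11.08 and 11.38 for Sdhd. Sdhc stayed between 10.37 and 10.70. The group means were 11.02, 10.53, 11.32 and 11.77 for Uqcrfs1, and 12.46, 12.01, 12.51 and 12.85 for Atp5a1, the alpha subunit of F1. WT_HFD was the lowest and KO_HFD the highest of the 4 groups in each of these 6 genes. Ndufa4l2, a paralog of Ndufa4 known to be induced in low oxygen, stayed between 7.47 and 7.61 in these groups, and read 8.05 ± 0.10 with IgG and 7.77 ± 0.01 with the antibody (-0.29, adjusted p = 0.0957).

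Other probe sets of the called members were compared with the calls. For genotype on high fat diet, 69 of 75 further probe sets had the sign of the call, 47 were called themselves and 0 were called in the opposite direction. For the antibody the counts were 63 of 72, 51 and 1. For diet in wild type they were 31 of 39, 11 and 0, for diet in arrays labelled Smad3-/- 33 of 47, 17 and 0, for genotype on regular diet 24 of 29, 12 and 0, and for the interaction 50 of 64, 35 and 0.

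The factors that assemble the complexes are not members, and the difference between their counts and those of the members was not tested. Of 47 assembly factors measured, 13 were called higher and 0 lower for genotype on high fat diet (median 0.17), and 18 higher and 2 lower with the antibody (0.22), of which 10 of the higher ones were among the 17 factors of complex I. On regular diet 1 was higher and 11 lower, in arrays labelled Smad3-/- 15 were higher and 1 lower on high fat diet, and in wild type 0 were higher and 4 lower. Of 16 genes for the outer membrane channel and protein import, 3 were higher for genotype on high fat diet and 2 higher and 1 lower with the antibody. Over all genes 4.74% were higher and 6.05% lower for genotype on high fat diet, and 11.7% and 12.6% with the antibody. The shares were 8.4% and 15.6% for genotype on regular diet, 11.5% and 5.82% for diet in Smad3-/-, and 4.69% and 6.11% for diet in wild type. A single subunit encoded in the mitochondrial genome was measured, ND5 of complex I. It was 12.72 ± 0.17 in WT_HFD and 13.11 ± 0.02 in KO_HFD (0.40 ± 0.11, adjusted p = 0.0222), and 12.55 ± 0.01 with IgG and 12.57 ± 0.07 with the antibody (0.02, adjusted p = 0.917).

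**Figure D5:**
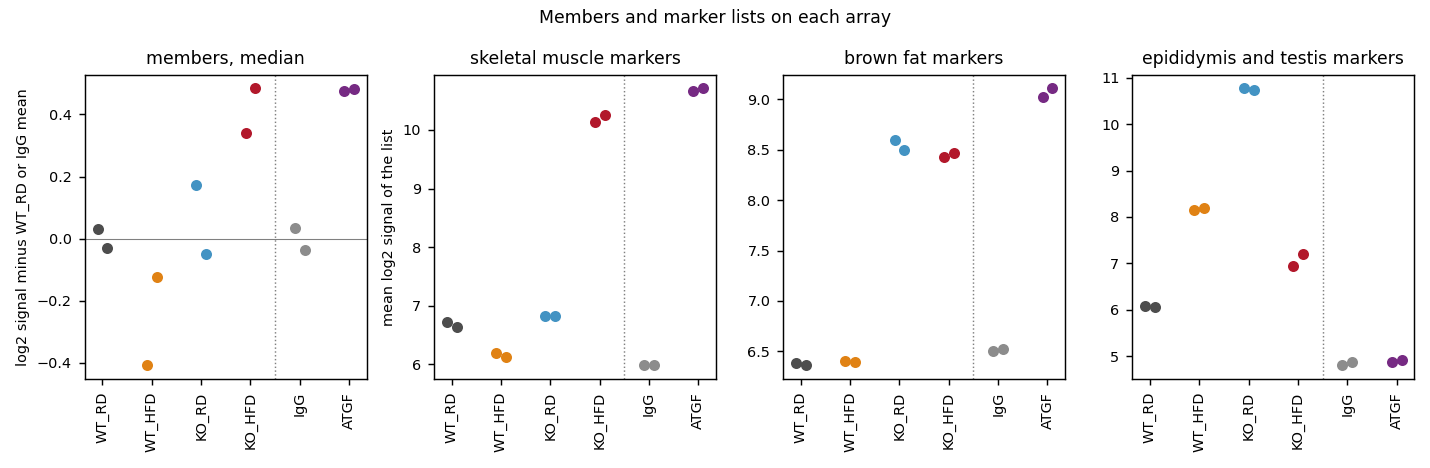
Median over the 82 members of the log2 signal minus the WT_RD or IgG mean (left), and mean log2 signal of the skeletal muscle, brown fat, and epididymis and testis marker lists, on each array. Within each experiment the members and the muscle list are highest in KO_HFD and ATGF, the brown fat list is high in KO_RD, KO_HFD and ATGF, and in the first experiment the epididymis and testis list is highest in KO_RD.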

How the data were processed

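Total RNA (6 ug per sample, per the labels' protocols) was measured on 1 Affymetrix array for each of 12 samples. The authors' deposited values are log2 signals; RMA and Partek, without versions, are named in the submitters' processing notes. Names came from the platform annotation, with the brightest probe set per gene. The test was limma 3.58.1 (R 4.3.3) on the 6 group means, with 6 contrasts, trended eBayes and two-sided p-values, adjusted by Benjamini-Hochberg over 18194 genes at a threshold of 0.05. The fit had 6 residual and 20.4 prior degrees of freedom, and was tested on simulated data. The number of arrays limits the precision. Of the 82 members, 79 passed a filter on dim probe sets that was tried as an alternative.

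Members, gene lists and tests were chosen with earlier results of these data known. Genes named in full are the highest and lowest called member of each complex and comparison and a preset list of subunits. Differences of preset members are given where called or where another comparison turns on them. Other names were chosen after their values were seen. Promoter sequences are from RefSeq (GRCm38.p6).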

Additional observations from a re-analysis of the deposited data

Results flagged for a closer look

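The genotype difference on high fat diet differed from that on regular diet, by the interaction test in limma, for 58 members called higher and for Cox7a2l in the opposite direction. Among the members named in full, the value on high fat diet minus that on regular diet was 1.57 for Ndufs5, 1.32 for Ndufs1, 0.89 for Ndufa4, 0.85 for Ndufv1 and 0.44 for Ndufa3 in complex I. In complex II it was 1.25 for Sdhb, 0.80 for Sdha and 0.54 for Sdhd. In complex III with cytochrome c it was 0.93 for Uqcrfs1, 0.87 for Cyc1, 0.64 for Uqcrc1 and 0.55 for Cycs. In complex IV it was 1.25 for Cox6a2, 0.72 for Cox5a and -0.71 for Cox7a2l. In complex V it was 1.14 for Atp5j, 0.82 for Atp5b, 0.80 for Atp5a1, 0.76 for Atp5g3, 0.60 for Atp5g2 and 0.48 for Atp5k. Apart from the demand for a change of over 1.5-fold, the call of Ndufa3 was lost under 11 alternatives (adjusted p up to 0.291), that of Atp5g2 under 6 (up to 0.846), those of Cycs and Sdhd under 4 each, that of Atp5k under 3 and that of Sdha under 1.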

How the results depend on the processing

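The counts of members higher for genotype on high fat diet (66), in the interaction (58), with the antibody (59) and with diet in arrays labelled Smad3-/- (43) moved by less than 1.5 times under every alternative that kept all arrays, except the demand for a change of over 1.5-fold, which left 13, 8, 3 and 1. That demand left 0 for diet in wild type and for genotype on regular diet in both directions, and 0 lower in the interaction. For diet in wild type the 31 lower members became 20 without an intensity trend and 19 with each gene's probe sets averaged, and the 2 higher members became 0 and 1, 1 with centred arrays, 4 with quantile normalization applied again and 1 with only the arrays of the experiment. For genotype on regular diet the 15 higher and 5 lower members became 44 and 3 with quantile normalization applied again, 8 higher with centred arrays and 3 lower with the mean of probe sets. Quantile normalization moved the members' median from 0.70 to 0.37 in the interaction, and gave 3 lower for diet in Smad3-/- and 4 lower in the interaction.

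Leaving out 1 array at a time gave 0 to 3 higher and 16 to 45 lower members for diet in wild type, 20 to 56 and 0 to 2 for diet in Smad3-/-, 8 to 18 and 3 to 8 for genotype on regular diet, 53 to 69 and 0 for genotype on high fat diet, 46 to 65 and 1 to 2 in the interaction, and 43 to 53 and 0 to 1 with the antibody.

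The deviations of arrays with the same letter correlated from -0.16 to 0.17. This cannot decide whether the letters pair the samples, since a pairing of small effect could give such values too. With the letter as a replicate block 1 member was higher and 25 lower for diet in wild type, 40 were higher for diet in Smad3-/-, 63 for genotype on high fat diet, 56 in the interaction and 57 with the antibody. Crossing the letters of KO_RD, added after seeing the data, gave 56 higher and 2 lower for diet in Smad3-/-.

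Of 129 called values of named members, 20 stayed called under all alternatives. The demand for a change of over 1.5-fold by itself took the call from 109. The sign changed for 1 value: Uqcrq for diet in Smad3-/- was -0.06 with the mean of its probe sets. Where fewer arrays do not show the cause of a changed value, the cause was not tested. Signal near background limits what can be said of Cox6b2, Cox7b2 and Ndufb4, the 3 members that did not pass the filter on dim probe sets. Cox7c, with a mean of 6.00 over the 12 arrays, lay just above its limit of 5.83.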
